A study of Homo sapiens with 24 samples.

Results

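The genes of the Notch pathway examined here were the 4 receptors NOTCH1, NOTCH2, NOTCH3 and NOTCH4, the 2 ligands JAG1 and JAG2, and the 4 direct targets HES1, HEY1, HEY2 and HEYL. They were chosen by name, and all 10 were found among the 20136 protein-coding genes of the annotation. Notch receptors are cleaved when a ligand on a neighbouring cell binds them, and the released intracellular domain enters the nucleus, joins the DNA-binding protein RBPJ and switches on repressors of the HES and HEY families. In the pancreas the pathway keeps progenitor cells undifferentiated, and it is active again in ductal cancer. TGFβ can induce several of the same genes, among them JAG1 and HEY1, in epithelial cells that undergo epithelial-to-mesenchymal transition.

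Chromatin immunoprecipitation with sequencing was made in PANC-1, a human pancreatic ductal carcinoma line, for H3K4me3, a mark of promoters, H3K27ac, a mark of active promoters and enhancers, and H3K27me3, the mark of Polycomb repression. The 3 groups were cells given a control siRNA (siControl), cells given the control siRNA and then TGFβ at 10 ng/ml for 48 h (siControl+TGFβ), and cells given an siRNA against PHF13 and then the same TGFβ (siPHF13+TGFβ). PHF13 is a plant homeodomain finger protein that binds methylated H3K4. There were 2 libraries per group and mark, hence 18 peak lists, all from one cell line, and no siPHF13 cells without TGFβ. The labels do not say whether the 2 libraries of a group came from separate cultures, so the spread between them may be technical.

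2 properties of the lists touch every value below. The names of the peaks inside the siPHF13+TGFβ lists read NCT, which the study uses for control siRNA with TGFβ, whereas those inside the siControl+TGFβ lists read 3AT; the labels were followed. If the labels of both TGFβ groups were exchanged, each direction given for depletion would be the opposite and each TGFβ comparison would be of other libraries. Secondly, list length differed within groups. The H3K27ac list of siPHF13+TGFβ replicate 1 held 6004 peaks, against 19413 to 36104 in the other 5, and the same replicate had the shortest lists of H3K4me3 (27869 peaks) and H3K27me3 (59573 peaks). The counts of genes that were lower after depletion are therefore given beside the count with siPHF13+TGFβ replicate 2 alone. A gene lower in both libraries is also lower in replicate 2, so this count cannot be the smaller and is no separate test. The lists hold no read counts and their depth is unknown. Of 8 ductal or epithelial marker genes, 7 had H3K4me3 in all 6 lists and 5 were covered by no H3K27me3 peak in any list, while H3K27ac was at 0 in every list for all 6 endocrine, all 5 immune and all 3 endothelial markers that were found, and for 6 of 8 acinar and 4 of 5 fibroblast or stellate markers.

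The values below are the base pairs covered by peaks within 5 kb of any annotated start site (TSS) of a gene, on hg19. The windows of a gene together differed in length, from 10001 bp at HES1 and HEYL to 60396 bp at NOTCH2. "Main TSS" is the start of the transcript that the annotation selects as representative. Where 6 values are listed for a gene, they are paired by group in the order siControl, siControl+TGFβ and siPHF13+TGFβ, with replicate 1 first in each pair. Each peak carries a fold enrichment over input and a −log10 q, and the place of a peak in its own list is given as the percent of peaks in that list with a higher −log10 q.

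The promoters of 3 target genes, HES1, HEY2 and HEYL, are shown because all 4 of 4 targets held the RBPJ core motif, TGGGAA on either strand, in the 250 bases upstream of the main TSS. None of the 6 receptors and ligands held it there (0 of 6), and 19.5% of the 18920 protein-coding promoters of that length did. HES1, HEY1 and HEYL each had 2 matches, and HEY2 had 1. The HES1 matches began at -84 and -70, both in the same orientation, and those of HEY1 at -66 and -49, also in the same orientation. The HEYL matches began at -178 and -99, in opposite orientations, and the HEY2 match at -213. Sequences were read from GRCh37, 5′ to 3′ on the strand of the gene and up to the base before the TSS, and capitals mark the RBPJ core. The HES1 window is chr3:193853687-193853936 (plus strand), that of HEY2 chr6:126070528-126070777 (plus strand) and that of HEYL chr1:40105316-40105565 (minus strand).
HES1: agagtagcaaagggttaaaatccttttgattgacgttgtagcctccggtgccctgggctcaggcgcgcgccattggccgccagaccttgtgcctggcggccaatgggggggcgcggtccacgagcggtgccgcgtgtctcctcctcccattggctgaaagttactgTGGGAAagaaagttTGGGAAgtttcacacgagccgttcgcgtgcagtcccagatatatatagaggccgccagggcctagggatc
HEY2: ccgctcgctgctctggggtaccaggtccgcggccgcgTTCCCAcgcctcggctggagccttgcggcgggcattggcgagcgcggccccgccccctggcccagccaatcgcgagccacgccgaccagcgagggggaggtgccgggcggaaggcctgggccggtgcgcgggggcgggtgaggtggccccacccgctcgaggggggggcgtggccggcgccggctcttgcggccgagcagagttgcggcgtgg
HEYL: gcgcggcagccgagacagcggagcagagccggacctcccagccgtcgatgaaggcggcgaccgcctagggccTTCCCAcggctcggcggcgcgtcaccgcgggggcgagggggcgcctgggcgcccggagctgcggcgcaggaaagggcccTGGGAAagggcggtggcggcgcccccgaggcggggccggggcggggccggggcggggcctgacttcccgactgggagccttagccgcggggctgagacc
Each of the other motifs was found in fewer of the 10 promoters than the RBPJ core. The N box (CACNAG), the site bound by HES proteins, occurred in 3 places of the HES1 promoter and once each in NOTCH3 and NOTCH4, and 30.0% of all promoters held it. AP-1 (TGANTCA) occurred in NOTCH4 alone among the 10 genes, against 4.71% of all promoters, while TEAD (GGAATG, 9.79% of all) and the SMAD palindrome (GTCTAGAC, 0.159% of all) occurred in none.

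NOTCH2 and NOTCH4 are printed as the receptors that differed most in what their main TSS carried, with each CpG dinucleotide in capitals. The NOTCH2 window, chr1:120612277-120612526 (minus strand), held 29 CpGs, a ratio of observed to expected CpG of 0.905. The NOTCH4 window, chr6:32191845-32192094 (minus strand), held 3, a ratio of 0.155, which was the lowest of the 10 genes and higher than that of 9.41% of all promoters. The median over all promoters was 0.757, and the other 9 genes lay between 0.592 (JAG1) and 0.941 (NOTCH1).
NOTCH2: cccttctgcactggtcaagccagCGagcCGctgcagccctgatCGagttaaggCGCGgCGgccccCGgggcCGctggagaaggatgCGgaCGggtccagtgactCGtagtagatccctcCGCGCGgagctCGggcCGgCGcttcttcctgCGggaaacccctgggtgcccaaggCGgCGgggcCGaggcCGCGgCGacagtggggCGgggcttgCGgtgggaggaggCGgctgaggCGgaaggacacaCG
NOTCH4: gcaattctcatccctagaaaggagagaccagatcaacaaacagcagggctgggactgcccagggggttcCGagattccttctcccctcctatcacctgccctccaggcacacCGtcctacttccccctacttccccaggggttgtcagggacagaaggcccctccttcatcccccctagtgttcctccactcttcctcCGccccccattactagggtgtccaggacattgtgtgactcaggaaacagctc

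Among the receptors, NOTCH1 (chromosome 9, 139388885 to 139440500, minus strand) carried promoter marks of modest strength and no repressive mark. Its H3K4me3 covered 1917 and 2138, 2327 and 2410, and 1748 and 2136 bp. Between 34.9% and 46.9% of the peaks of a list were stronger. H3K27ac at the same place covered 536 and 539, 1024 and 388, and 0 and 1600 bp, so the replicates of both TGFβ-treated groups differed by more than the groups did. H3K27me3 was at 0 in all 6 lists.

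NOTCH2 (chromosome 1, 120454176 to 120643366, minus strand) stood out for the place of its H3K4me3 and H3K27me3 peaks in their lists by −log10 q. Its main TSS lay under or beside one of the top H3K4me3 peaks of each library. Between 0.574% and 1.15% of peaks were stronger, whereas for the median protein-coding gene with a peak this was 21.3% to 26.7%. The fold enrichment of its H3K4me3 did not stand out. It was 5.71 to 6.77, within the range of the 10 genes, from 2.85 at JAG1 to 10.7 at NOTCH3. H3K4me3 covered 2273 and 2241, 2875 and 2322, and 2165 and 2271 bp. H3K27ac covered 749 and 1228, 1434 and 1580, and 695 and 1920 bp. H3K27me3 peaks that reached the 5 kb windows, merged over the 6 lists, formed a domain of 38318 bp. It began 1061 bp upstream of this start and covered an alternative, more distant start site of the gene. The mark went on beyond these windows: in siControl replicate 2 a further peak ran from -62397 to -37110 bp. The strongest H3K27me3 peak within the windows was also near the top of its lists, with 0.643% to 2.28% of peaks stronger. Repressive and active marks thus lay side by side here, and the length under both H3K4me3 and H3K27me3 was 0 bp in every library. NOTCH2 has near-identical partial copies on the same chromosome (the NOTCH2NL genes). The methods of the study give Bowtie2 at its default settings and describe no filter on reads that fit several copies.

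NOTCH3 (chromosome 19, 15269849 to 15311806, minus strand) had H3K4me3 without H3K27ac. H3K4me3 covered 1896 and 2252, 2252 and 2410, and 749 and 1605 bp, and the siPHF13+TGFβ values lay below all others. 3 regions made up this length. The one at the main TSS was in all 6 lists, one inside the gene 22622 to 23737 bp downstream was in 5, and one 5062 to 5817 bp downstream was in 4. H3K27me3 peaks lay downstream of the start in all 6 lists, covering 991 and 3222, 2311 and 1853, and 253 and 1463 bp. H3K27ac was at 0 bp within 5 kb in every list.

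NOTCH4 (chromosome 6, 32162620 to 32191844, minus strand) had no H3K4me3 at its own main TSS. Within 5 kb of that start, H3K4me3 and H3K27ac were at 0 bp in all 6 lists. H3K27me3 peaks were found there in all 6 lists and lay over the start itself in 4. The H3K4me3 (1514 to 1866 bp) and H3K27ac (886 to 1624 bp) counted for NOTCH4 lay about its last exons, 26747 to 29018 bp downstream, where a short transcript of NOTCH4 starts next to the promoter of GPSM3. That H3K27ac peak was among the strongest of its lists, with 0.974% to 4.95% of peaks stronger, and cannot be ascribed to either gene. H3K27me3 over all NOTCH4 windows covered 7185 and 23803, 12959 and 13716, and 3311 and 9689 bp.

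**Figure D1:**
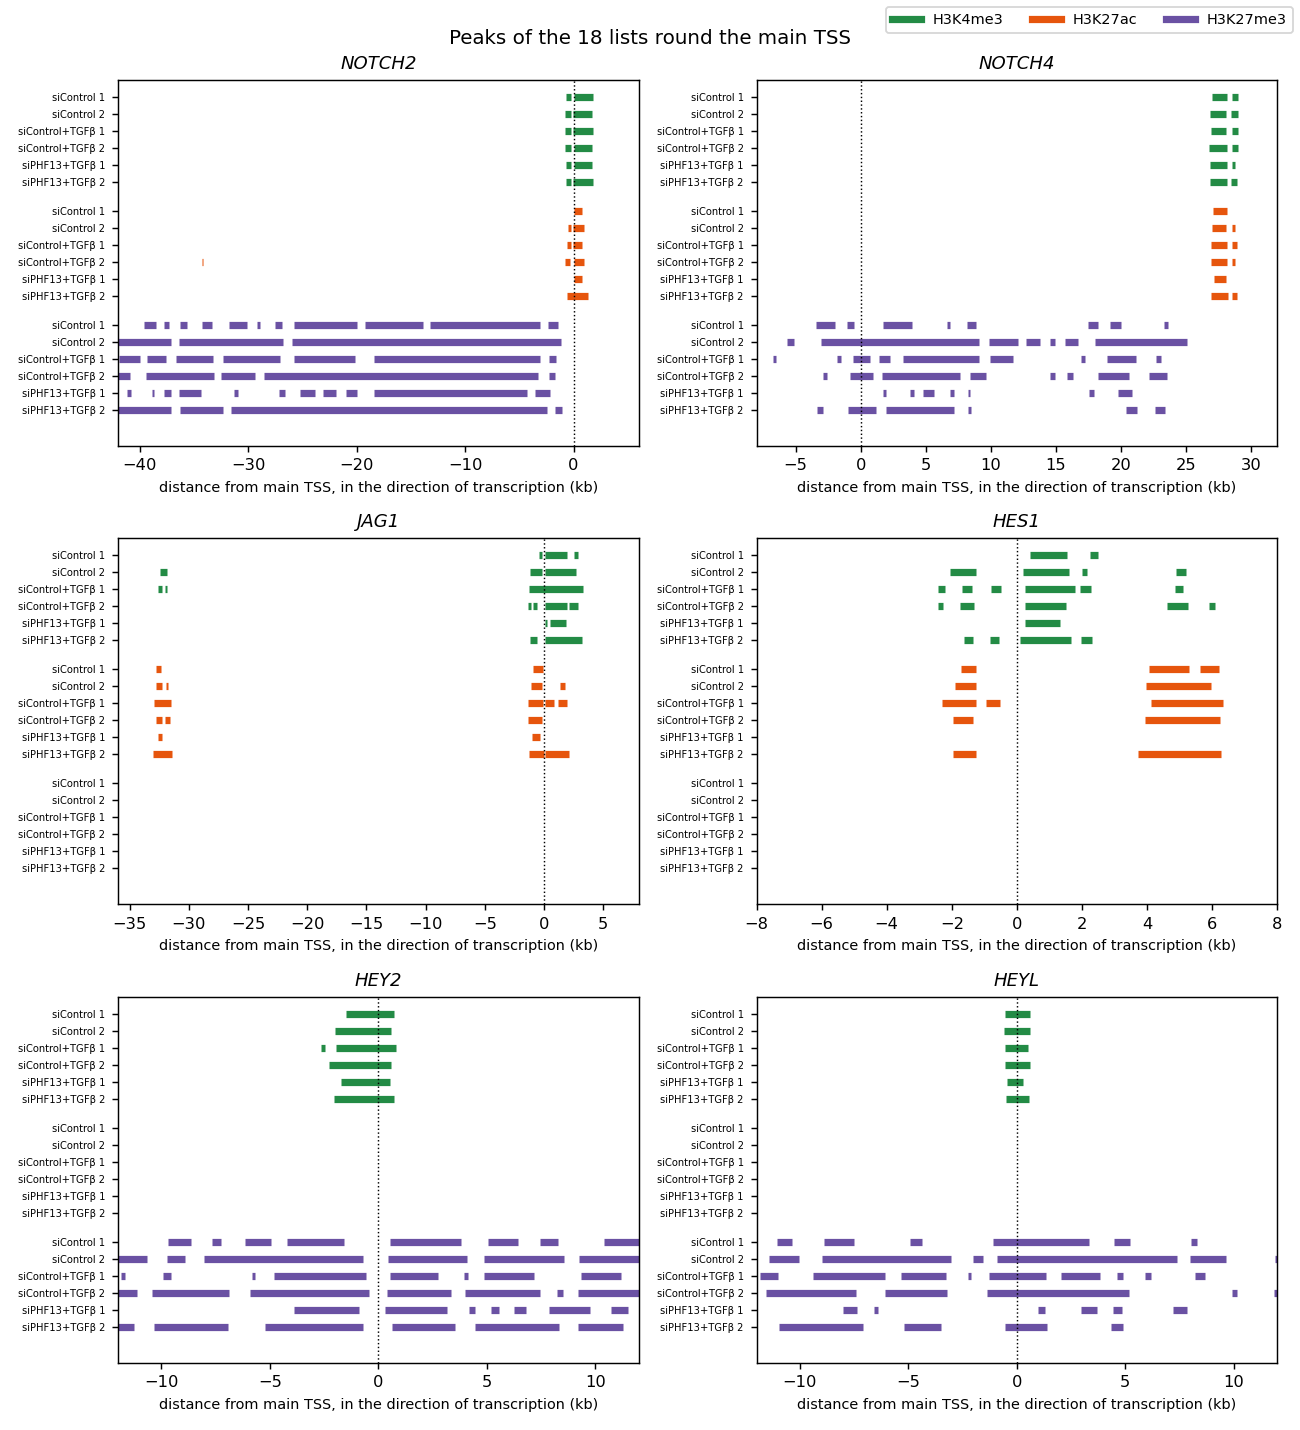
Peaks of H3K4me3 (green), H3K27ac (orange) and H3K27me3 (purple) in each of the 18 lists, by distance in kb from the main TSS (dotted line; positive values lie downstream), for NOTCH2, NOTCH4, JAG1, HES1, HEY2 and HEYL. H3K27me3 lies upstream of the NOTCH2 start, over the NOTCH4 start and on both sides of HEY2, and none falls within the range drawn for JAG1 and HES1; no H3K27ac falls within the range drawn for HEY2 and HEYL.

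The ligands differed from each other. JAG1 (chromosome 20, 10618332 to 10654647, minus strand) carried H3K4me3 on 2551 and 3639, 4725 and 3274, and 1510 and 3770 bp. This was the widest H3K4me3 of the 10 genes in all libraries but siPHF13+TGFβ replicate 1, although 31.8% to 53.5% of the peaks of a list were stronger than its strongest peak. H3K27ac covered 807 and 1256, 2762 and 1180, and 625 and 3240 bp. One region next to the start was in all 6 lists, and a second one, 116 to 2089 bp downstream, was in 3 lists, 1 of each group. JAG2 (chromosome 14, 105607319 to 105635161, minus strand) had H3K4me3 on 1189 and 2115, 2039 and 1769, and 1295 and 1780 bp, and its only H3K27ac was a peak of 157 bp in siControl replicate 2, weaker than 96.0% of that list. Neither ligand had H3K27me3 in any list.

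The JAG1 locus also held an intergenic H3K27ac region upstream of the gene that was present in all 6 lists. Intergenic here means outside protein-coding genes. It spanned 10686086 to 10687716 on chromosome 20, 31439 to 33069 bp upstream of the main TSS, with JAG1 as the nearest protein-coding start. It covered 472 and 671, 1432 and 1003, and 320 and 1631 bp. Both siControl+TGFβ values lay above both siControl values, and the siPHF13+TGFβ values lay on either side of all of these. The 300 bases about its summit in siControl replicate 2 are printed because they hold RBPJ core and TEAD motifs, both in capitals (chr20:10686970-10687269, plus strand). There were 2 matches of TGGGAA, from bases 103 and 239, and 2 of GGAATG, from bases 99 and 221. The first pair overlaps by the letters TG. Of 10280 H3K27ac summits of that list farther than 5 kb from a protein-coding start, 24.5% had the RBPJ core and 19.6% the TEAD motif within the same length.
JAG1 upstream region: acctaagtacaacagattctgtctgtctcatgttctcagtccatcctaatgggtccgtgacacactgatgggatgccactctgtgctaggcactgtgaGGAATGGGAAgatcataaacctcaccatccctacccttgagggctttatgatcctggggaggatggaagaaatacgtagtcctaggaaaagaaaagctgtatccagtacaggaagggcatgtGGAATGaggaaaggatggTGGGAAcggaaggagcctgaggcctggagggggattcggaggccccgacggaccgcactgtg

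The targets differed in the marks they carried. HES1 (chromosome 3, 193853937 to 193856521, plus strand), a widely expressed Notch-induced repressor, had active marks alone. H3K4me3 covered 1396 and 2483, 2848 and 2221, and 1078 and 2483 bp. No peak of any mark lay over the TSS itself in any of the lists: the H3K4me3 region shared by all 6 started 84 bp downstream. H3K27ac flanked the gene, 1248 to 2308 bp upstream and 3708 to 6331 bp downstream. Within the 5 kb window it covered 1393 and 1664, 2349 and 1682, and 0 and 2014 bp. The strongest H3K27ac peak ranked high, with 4.83% to 18.1% of peaks stronger in the 5 lists that had it. H3K27me3 was at 0 bp in all 6 lists.

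HEY2 and HEYL carried H3K4me3 and H3K27me3 at the same promoter and no H3K27ac within 5 kb in any list. At HEY2 (chromosome 6, 126068810 to 126082415, plus strand), H3K4me3 covered 2250 and 2612, 2969 and 2857, and 2237 and 2769 bp. H3K27me3 covered 7116 and 10066, 6912 and 9483, and 6143 and 7973 bp, and lay on both sides of the main TSS, up to 443 bp upstream and from 291 bp downstream. Between 0.576% and 7.49% of H3K27me3 peaks were stronger, and the marks shared 212 to 2001 bp. At HEYL (chromosome 1, 40089107 to 40105315, minus strand), H3K4me3 covered 1182 and 1166, 1068 and 1164, and 767 and 1087 bp. The H3K27me3 of HEYL covered 5530 and 8322, 6566 and 8162, and 1475 and 3974 bp. It included the whole of the H3K4me3 peak in 5 libraries and none of it in siPHF13+TGFβ replicate 1.

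HEY1 (chromosome 8, 80674606 to 80680092, minus strand) had all 3 marks. H3K4me3 covered 1887 and 2595, 2672 and 2554, and 1640 and 2308 bp. H3K27ac, upstream of the start, covered 391 and 760, 1306 and 737, and 0 and 1150 bp. H3K27me3, within the gene, covered 472 and 1551, 770 and 745, and 173 and 762 bp. HEY1 had 146 to 512 bp under both H3K4me3 and H3K27me3.

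The combination seen at HEY2, HEYL and NOTCH3, H3K4me3 and H3K27me3 without H3K27ac, was found in 11.8% to 16.1% of all protein-coding genes, depending on the library. Of the 10 genes, these 3 had it in every library set except siPHF13+TGFβ replicate 1, where HEY1, without an H3K27ac peak, made it 4. H3K27me3 peaks were weak by −log10 q: the highest at these genes was 4.97, at HEY2, and at HEYL, NOTCH3, NOTCH4 and HEY1 none reached 3.

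**Figure D2:**
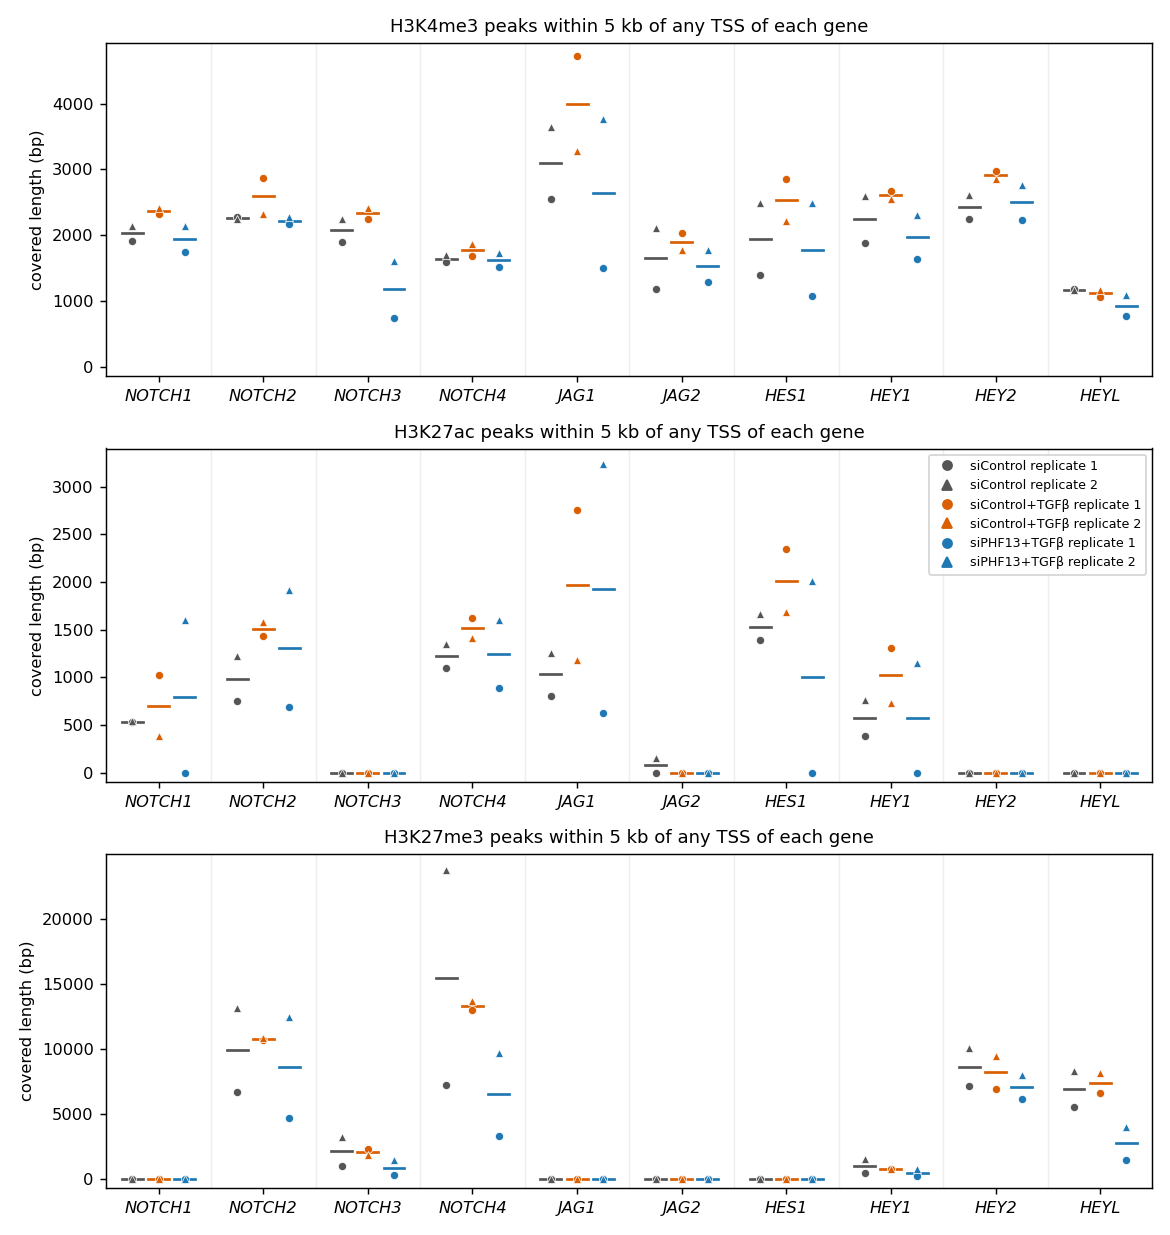
Base pairs covered by peaks within 5 kb of any TSS, per library (circles, replicate 1; triangles, replicate 2) and as group means (bars), for the 10 genes and 3 marks. All 10 genes have H3K4me3, while H3K27ac stays at 0 for NOTCH3, HEY2 and HEYL and H3K27me3 at 0 for NOTCH1, JAG1, JAG2 and HES1.

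**Figure D3:**
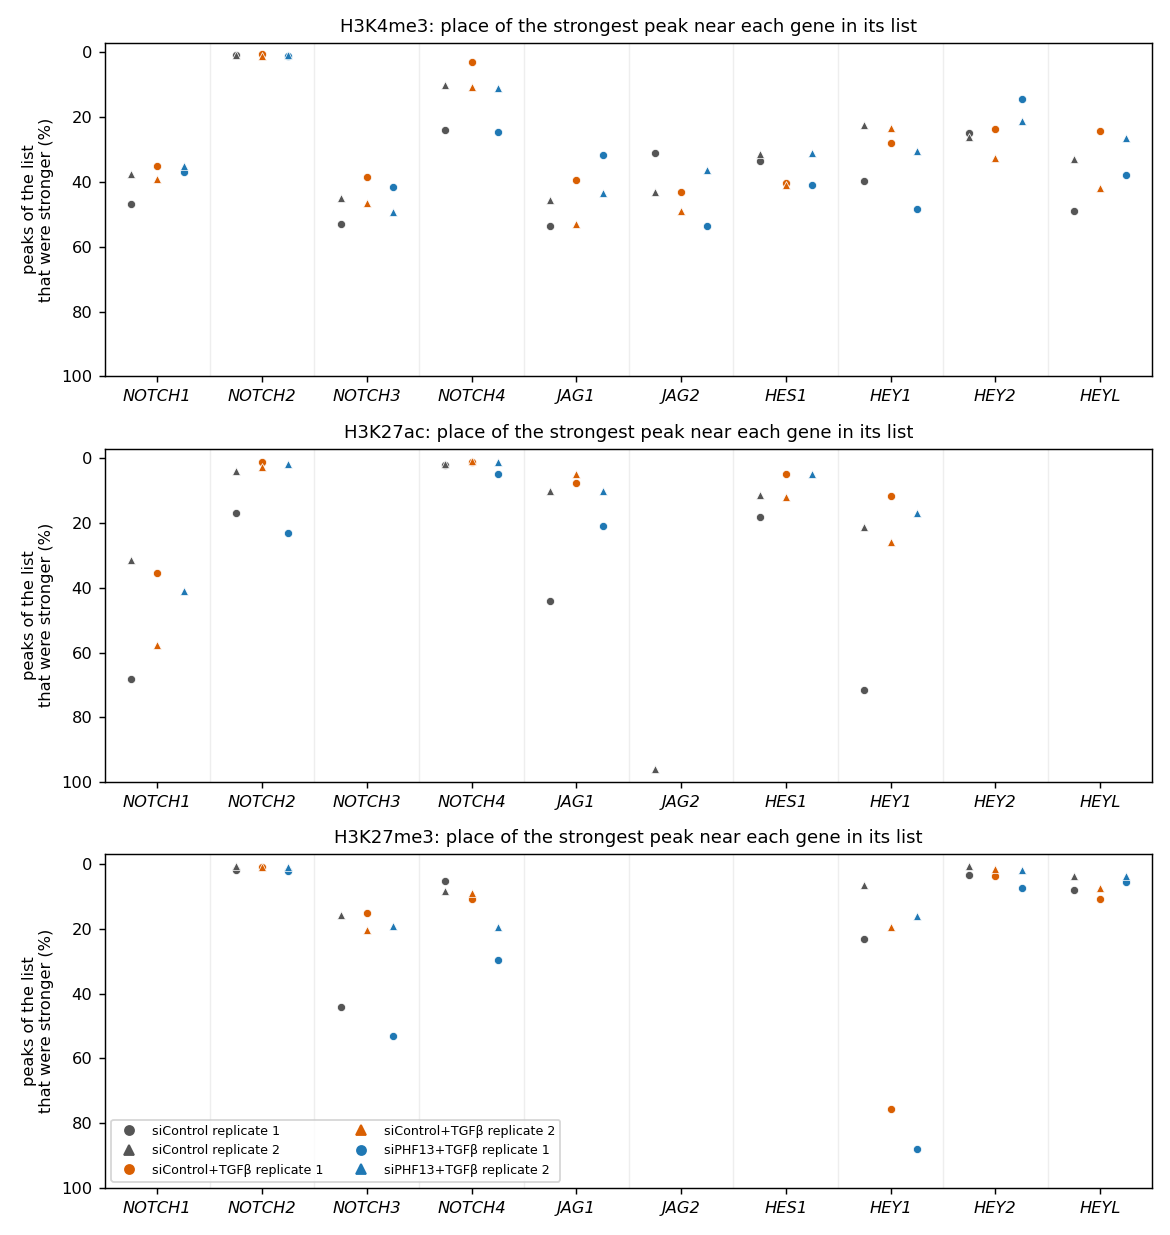
Percent of the peaks of a list that were stronger, by −log10 q, than the strongest peak within 5 kb of each gene, per library; the axis runs downward, so the strongest peaks are at the top, and a gene without a peak has no point. NOTCH2 lies within 1.15% of the top for H3K4me3 in all 6 lists.

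To determine what TGFβ changed at these genes, siControl+TGFβ was set against siControl. The 2 groups of 2 libraries allow no exact permutation p below 0.333, so a gene is described by whether its groups overlapped, and the formal test was that of limma across all genes with a peak in at least 2 of the 6 lists. H3K4me3 was wider after TGFβ, with no overlap, at NOTCH1, NOTCH2 and HEY2, that is 3 of 10 genes, against 47.4% of the 15597 genes tested. HEYL was the 1 gene with narrower H3K4me3, against 2.04% of all, by a mean of 58 bp, with 1164 bp in the nearest siControl+TGFβ library against 1166 bp in the nearest siControl library. Without siControl+TGFβ replicate 1 the difference was -10 bp at HEYL and 65 bp, in place of 341.5 bp, at NOTCH2, and without siControl replicate 1 it was 301 bp in place of 482 bp at HEY2. None of the 10 passed the limma test (lowest adjusted p = 0.871), which called 0.122% of all genes. For HES1 the log2 change was 0.41 ± 0.48 (SE) and for JAG1 0.36 ± 0.49, the largest of the 10, but the values of the 2 groups overlapped at both. The median change of the 10 genes was 0.22 on the log2 scale and that of all genes 0.13.

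H3K27ac was wider without overlap at NOTCH2, NOTCH4 and HES1, 3 of the 6 genes tested, beside 56.3% of all 12712 genes. NOTCH3, HEY2 and HEYL, at 0 in every list, and JAG2, with a peak in 1 list, were not tested. None was narrower, against 0.0787% of all genes. At NOTCH2 the mean went from 989 ± 339 to 1507 ± 103 bp (SD, n = 2), and at HES1 from 1529 ± 192 to 2016 ± 472 bp. Without siControl+TGFβ replicate 1 the difference at HES1 was 153.5 bp in place of 487 bp and that at NOTCH4 187 bp in place of 293 bp. Without siControl replicate 1 it was 279 bp in place of 518.5 bp at NOTCH2 and 169 bp at NOTCH4. The NOTCH4 value is that of the shared promoter with GPSM3. Limma called 0% of genes for H3K27ac at an adjusted p under 0.05 (96 genes higher and 0 lower at an unadjusted p under 0.05), and for the 6 genes its adjusted p was 0.985. The spread in this fit came from all 6 libraries, among them the short list of siPHF13+TGFβ replicate 1, and the SE was 1.52 at each of the 6 genes. A fit of the 4 libraries of the comparison alone also called 0 genes. There, 953 genes were higher and 2 lower at an unadjusted limma p under 0.05. Their median change of 0.48 lay below that of all genes, 0.60, and when the libraries were scaled to equal covered length, the summed change of the 10 genes turned from 0.53 ± 0.38 (pooled SD) to -0.13 and the directions at HES1 and NOTCH4 turned as well. H3K27me3 overlapped between the groups at all 6 genes that had it (6.01% of all 8590 genes were higher and 7.19% lower without overlap), with adjusted p = 1 at each and limma calls in 0% of genes (31 higher and 130 lower at an unadjusted p under 0.05).

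Away from the promoters, between 5 and 50 kb from their start sites, 34 regions of H3K27ac were found, 8 of them in all 6 lists and 8 in 1 list only. At 8 of 10 genes both siControl+TGFβ libraries exceeded both siControl libraries in this length, where 58.6% of all 13519 genes with such peaks did so; at 0 of 10 they were lower, against 0.207%. The exceptions were JAG2 and NOTCH3. With all peaks within 5 kb of any protein-coding start left out, 6 of the 8 genes that still had peaks in at least 2 lists were higher without overlap, against 51.1% of 6711 genes, and 0 of 8 were lower, against 0.79%. HES1 then overlapped (1117 and 1005 bp against 1153 and 935 bp) and HEY2 and JAG2 were at 0. With all peaks counted, the largest differences by mean were at NOTCH4 (4759 ± 423 to 6598 ± 1363 bp), JAG1 (2218 ± 556 to 3861 ± 976 bp) and HEY1 (1533 ± 574 to 2556 ± 613 bp; SD, n = 2). Without the peaks near protein-coding starts, NOTCH4 had 831 and 1012 bp in siControl and 1552 and 1151 bp in siControl+TGFβ. JAG1 then had 853 and 1490 bp in siControl and 3286 and 2132 bp in siControl+TGFβ. The NOTCH4 peaks lay mostly at the start sites of neighbouring genes (AGPAT1, PBX2 and others), and those counted for HEY2 lay at NCOA7. At HEY1 they were intergenic, 15568 to 16729 and 25369 to 27578 bp upstream, and at NOTCH2 mostly within its own introns. The nearer HEY1 region overlapped H3K4me3 peaks in 6 lists and the farther one in 0. Of the 300 bases about the summit of the nearer one in siControl replicate 2, 116 lay in annotated exons of any transcript type. 4 intergenic or intronic elements were absent from both siControl lists and present in both siControl+TGFβ lists: one 21678 to 22873 bp upstream of NOTCH1 (726 and 182 bp), one in a NOTCH2 intron 16523 to 17553 bp downstream of the main TSS (542 and 228 bp), one 42333 to 42608 bp upstream of that TSS (176 and 276 bp), and one 32950 to 33615 bp downstream of the HEYL start (666 and 325 bp). The protein-coding start nearest to the last of them was that of PABPC4, 29238 bp away. These 4 elements were weak, with 49.9% to 99.0% of peaks stronger. The share of all distal regions with this pattern was not counted. The siControl H3K27ac lists were also shorter, with 19413 and 25929 peaks against 36104 and 27110 in siControl+TGFβ. H3K4me3 peaks overlapped the HEYL element in 6 lists, the NOTCH2 intron element in 4, the NOTCH1 element in 1 and the other NOTCH2 element in 0.

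**Figure D4:**
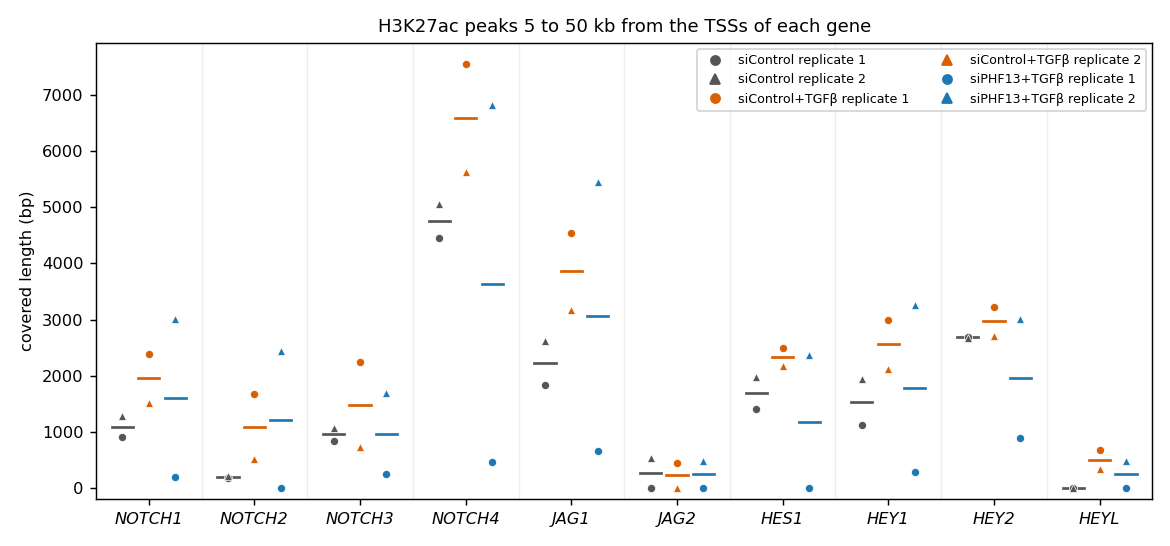
H3K27ac between 5 and 50 kb from the start sites of each gene, in base pairs per library (circles, replicate 1; triangles, replicate 2), with group means as bars. Both siControl+TGFβ libraries lie above both siControl libraries at 8 of the 10 genes, and the siPHF13+TGFβ libraries are far apart from each other.

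To examine the effect of PHF13 depletion, siPHF13+TGFβ was compared with siControl+TGFβ, the same control libraries as above. At PHF13 itself H3K4me3 covered 2637 and 3010, 3018 and 3084, and 2205 and 3018 bp, which does not measure depletion, since an siRNA acts on the transcript. H3K4me3 was narrower with no overlap at NOTCH1, NOTCH2, NOTCH3, HEY1 and HEY2, 5 of 10 genes, against 62% of all genes, and was wider at 0 of 10, against 0.269%. With siPHF13+TGFβ replicate 2 alone, 5 of 10 genes lay below both siControl+TGFβ libraries, against 63.4%. The limma test called none of the 10 (0.135% of all genes). The largest change was at NOTCH3, from 2331 ± 112 to 1177 ± 605 bp (SD, n = 2), a log2 change of -1.01 ± 0.35 (SE), or -0.79 relative to the median of all genes, with adjusted p = 0.408 by limma. Its unadjusted limma p was 0.0380. Without siPHF13+TGFβ replicate 1 the log2 change of NOTCH3 was -0.51, where that of the median gene was -0.090. The other differences without overlap were also smaller without this replicate, at -232.5 bp in place of -426.5 bp for NOTCH1, -305 in place of -639 bp for HEY1 and -144 in place of -410 bp for HEY2. For NOTCH2 the difference was -104 bp in place of -380.5 bp without siControl+TGFβ replicate 1. Most of the NOTCH3 difference lay in the 2 regions inside that gene. Within 5 kb of the main TSS of NOTCH3 alone, the values were 1121 and 1389 bp against 749 and 1123 bp, which overlap. When libraries were scaled to equal covered length, the differences at NOTCH2 and HEY2 turned to 97.0 and 93.8 bp in the other direction. The median change of the 10 genes was -0.29 and that of all genes -0.23. Summed over the 10 genes the change was -0.42 ± 0.30 (log2, pooled SD), and -0.14 without replicate 1.

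H3K27ac did not separate the 2 groups at any of the 6 genes tested: 0 were narrower without overlap (10.1% of all genes) and 0 wider (0.0236%), and limma called 0% of genes (0 higher and 9 lower at an unadjusted p under 0.05; lowest adjusted p among these genes 0.696). The replicates differed widely. HES1 had 2349 and 1682 bp in siControl+TGFβ, 0 bp in siPHF13+TGFβ replicate 1 and 2014 bp in replicate 2. HEY1 and NOTCH1 were also at 0 in replicate 1. NOTCH2 (695 bp), NOTCH4 (886 bp) and JAG1 (625 bp) had a peak in it. In replicate 2 alone, NOTCH1 (1600 bp), NOTCH2 (1920 bp) and JAG1 (3240 bp) were wider than in both siControl+TGFβ libraries, 3 of 6 genes against 29.6% of all. The direction of the comparison therefore rested on replicate 1: the summed change of the 10 genes was -0.74 ± 1.20 (log2, pooled SD) with both libraries, 0.43 without replicate 1 and -1.91 without replicate 2. The same was true of the distal H3K27ac, where 0 of 10 genes were lower (5.98% of all) or higher (0.0444%) without overlap, while replicate 2 alone exceeded both siControl+TGFβ libraries at 5 of 10 genes, NOTCH1, NOTCH2, JAG1, JAG2 and HEY1, against 29% of all. The summed distal change was -1.36 ± 1.71 with both libraries and 0.33 without replicate 1.

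H3K27me3 was narrower in both siPHF13+TGFβ libraries at NOTCH3, NOTCH4 and HEYL, 3 of the 6 genes with the mark, against 29.9% of all genes tested, and wider at 0 (1.12% of all). With replicate 2 alone it was lower at 3 of 6, against 30.5%. Limma called 0% of all genes for this mark (11 higher and 181 lower at an unadjusted p under 0.05). HEYL went from 7364 ± 1129 to 2725 ± 1767 bp (SD, n = 2), a log2 change of -1.55 ± 0.92 (SE), or -0.61 relative to the median of all genes, with adjusted p = 0.828. The libraries of HEYL kept this order after scaling to equal covered length, with a difference of -2641 bp, and had no peak left at a −log10 q of 3. At NOTCH4 the difference, 13338 ± 535 against 6500 ± 4510 bp, was spread over the gene, and within 5 kb of its main TSS the values overlapped (4149 and 5321 bp against 815 and 5692 bp). HEY2, with the highest −log10 q of H3K27me3 among the targets, had 8198 ± 1818 against 7058 ± 1294 bp. Without siPHF13+TGFβ replicate 1 the log2 change of HEYL was -0.87, where the median over all genes was 0, and the difference was -3648.5 bp in place of -6837.5 bp at NOTCH4 and -619 in place of -1224 bp at NOTCH3. The median change of the 6 genes was -1.02 and that of all genes -0.94. The summed change of -0.81 ± 0.59 (log2, pooled SD) became -0.22 without replicate 1 and turned to 0.034 when the libraries were scaled to equal covered length.

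**Figure D5:**
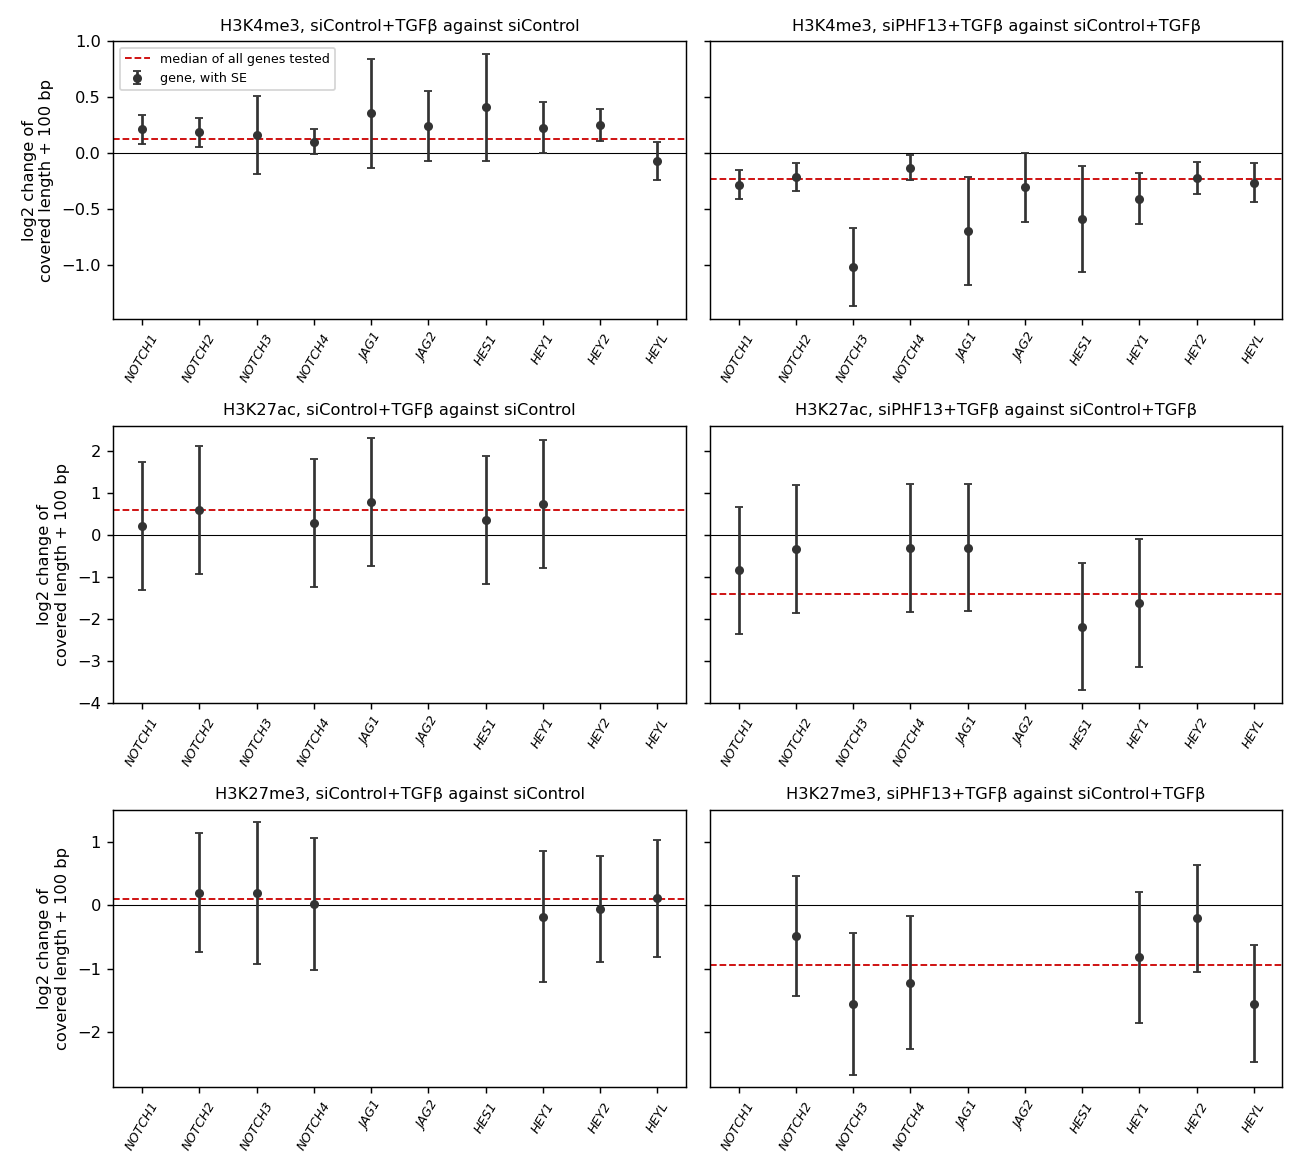
Log2 change of covered length plus 100 bp, with its SE from limma, for each gene tested, by mark (rows) and comparison (columns); the dashed line is the median of all genes tested. Most genes lie within 1 SE of that median, and NOTCH3 H3K4me3 under depletion, at -1.01, lies below it by more than its SE. The SE comes from all 6 libraries of a mark, so for H3K27ac both columns include the short list of siPHF13+TGFβ replicate 1.

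The remainder of the pathway was described from a list of 62 genes grouped by function. H3K4me3 was present in all 6 lists at 59 of the 62. After TGFβ it was wider without overlap at 25 of the 60 tested and narrower at 2, and after depletion it was narrower at 31 and wider at 0, shares that stood at 47.4% and 62% over all genes. With replicate 2 alone 32 of the 60 lay below both siControl+TGFβ libraries. Limma called none of them. At 20 genes H3K4me3 was wider after TGFβ and narrower after depletion without overlap in either, as were 39% of all genes tested, and both comparisons share the siControl+TGFβ libraries. Ranked by the sum of both mean differences in bp, the first were SPEN, a corepressor partner of RBPJ (4882 and 5326, 5984 and 5674, then 4576 and 5293 bp), NEURL1, a ubiquitin ligase that internalises ligands (1555 and 2101, 2710 and 2426, then 1551 and 1932 bp), and MIB1, a ligase of the same step (3987 and 4605, 4694 and 4952, then 3416 and 4304 bp). HES3, DTX1 and the ligand DLL4 followed in that order.

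H3K27ac was in all 6 lists at 18 of the 62 pathway genes, among them RBPJ, its coactivator EP300 and the proteases ADAM10 and FURIN, and in no list at 10. It was wider after TGFβ at 27 of 50 tested and narrower after depletion at 5, both with the 2 replicates and with replicate 2 alone, beside 56.3% and 10.1% of all genes. The 5 that were wider after TGFβ and narrower after depletion, as were 9.57% of all genes, were the corepressor NCOR1, the protease ADAM17, the glycosyltransferase POFUT1, the ligase MIB2 and the ligand DLL3. DLL3 had 1001 and 401 bp in siControl+TGFβ and 0 in the other 4 libraries. H3K27me3 was in all 6 lists at 11 pathway genes, including all 3 Delta ligands, DLL1, DLL3 and DLL4, and in none at 39. The enzymes that glycosylate receptors had no H3K27me3 in any list (5 of 5 genes), and of the nuclear complex 7 of 8 had none.

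Genes with a similar pattern were sought by the distance between 18 values, the log2 covered length in each library, over 20135 protein-coding genes. Closest to HES1, the gene with the most H3K27ac in siControl, were ACBD5 (distance 0.414), ARHGAP21 (0.482) and CSNK1E (0.539), where the median gene was at 7.58. Closest to NOTCH4, the gene with the most H3K27me3 in siControl over all its windows (37025 bp), were FOLR3 (1.17), NOTCH2 (1.78) and a gene known only by its identifier ENSG00000283128 (1.80), where the median was 16.6. The H3K4me3 and H3K27ac in this distance were those of NOTCH4 next to GPSM3. Within 5 kb of the main TSS alone, H3K27me3 in siControl covered 4191 and 8021 bp at NOTCH4. It covered 5988 and 8098 bp at HEY2 and 5530 and 8322 bp at HEYL.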

How the data were processed

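The authors' 18 peak lists were used as deposited. According to the methods of the study and the submitters' processing notes, reads were trimmed with Trim Galore 0.4.1, aligned to hg19 with Bowtie2 2.4.1, freed of duplicates with Picard, and peaks were called per library against input with MACS2 2.2.7.1, narrow for H3K4me3 and H3K27ac and broad for H3K27me3. The deposited columns hold a score, a fold enrichment (a ratio to input), and the −log10 of the p-value and of the q-value. The lowest −log10 q was 1.30 in the narrow lists, under the 3 to which the cutoff in the study's methods corresponds, and 1.00 in the H3K27me3 lists. The 6 Input samples were not used here.

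Peaks were merged and intersected with windows of 5 kb around every TSS of 20136 protein-coding genes (GENCODE release 44 lifted to GRCh37) in Python 3.11.15 with numpy 2.4.6; peaks on all 24 chromosomes lay within GRCh37. Interval and model code was tested on simulated data. Log2 of covered length plus 100 bp was fitted with limma 3.58.1 in R 4.3.3 over the 6 libraries of a mark, without a replicate block, on genes with peaks in at least 2 lists, with Benjamini-Hochberg adjusted p-values at 0.05. Exact permutation tests were two-sided. Sequences were read with pysam 0.24.0. The 10 genes and all gene lists were chosen with earlier results of these data known. Named among the other pathway genes were those whose groups did not overlap in both comparisons with opposite directions, at most 6 per mark and largest first by summed bp difference, and any called by limma; the nearest genes were the 3 at the smallest Euclidean distance.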

Additional observations from a re-analysis of the deposited data

How the results depend on the processing

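Summed covered length over the 10 genes kept its direction for H3K4me3 under list lengths made equal, the 50% strongest peaks, a −log10 q of 3, windows of 2.5 kb, the 5′ end or main TSS alone (the main TSS added after the data were seen) and scaling. Scaling libraries to equal covered length turned the H3K27ac change with TGFβ to -0.13, the H3K27ac change with depletion to 0.87 and the H3K27me3 change with depletion to 0.034; a −log10 q of 3 moved the latter to -2.17, from -0.81. It also turned HES1 to -340 bp and NOTCH4 to -318 bp for H3K27ac with TGFβ, and NOTCH2 to 97.0 and HEY2 to 93.8 bp for H3K4me3 with depletion. Leaving out peaks within 5 kb of any protein-coding TSS raised the distal H3K27ac change with TGFβ from 0.59 to 1.00. Of single genes, 15 of 46 results had groups that did not overlap; overlap appeared in 22 alternatives and disappeared in 70.

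Over all genes, the limma counts for H3K4me3 (19 with TGFβ, 21 with depletion) became 9 with TGFβ without the filter on low values, 48 and 55 with 10 bp added, 8 and 10 with libraries centred, 4 with TGFβ on its 4 libraries alone, and 4 and 4 with lists of equal length. Leaving out any library gave 0 to 0. Without the filter H3K27ac gave 3 and 3 and H3K27me3 20 and 3. For H3K27ac with depletion, leaving out 1 library gave 0 to 10056, the latter without siPHF13+TGFβ replicate 2. Deviations of same-numbered H3K4me3 libraries correlated at -0.41 (siControl and siControl+TGFβ), 0.51 (siControl and siPHF13+TGFβ) and -0.29 (siControl+TGFβ and siPHF13+TGFβ). In the same order they were -0.24, 0.26 and -0.092 for H3K27ac and -0.039, 0.17 and 0.012 for H3K27me3. Replicate 1 had the shorter H3K4me3 list in siControl and siPHF13+TGFβ and the longer one in siControl+TGFβ. Pairing by replicate number thus could not be told apart from list length. With the replicate block the H3K4me3 counts were 0 and 0 and no other count of 0 changed, and with crossed numbers in the block, added after the data were seen, 3 and 3.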
